A study of Rattus norvegicus with 24 samples.

Results

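Apart from 2 matched by name only, the 56 genes described here encode extracellular guidance cues and their cell-surface receptors. The families are semaphorins, plexins, ephrins, Eph receptors, Slits and Robos, and netrins with the Unc5 and Dcc receptors. All 56 were chosen by gene symbol alone, from 14217 genes with 1 symbol on the array. Where a gene had several probe sets, the brightest one, by its average log2(signal + 16) in all 24 arrays, stood for it. Of the 56, 36 had a signal above the median of their array in at least 4 arrays and were tested: 11 of 17 semaphorins, 7 of 8 plexins, 4 of 5 ephrins, 6 of 12 Eph receptors, 3 of 6 Slit and Robo genes, 3 of 6 netrin, Unc5 and Dcc genes, and Unc50 and Unc5cl. Unc50 and Unc5cl entered by the start of their symbol and are not placed in a family of guidance cues or receptors. They are part of the 56 and the 36, and so of the counts, shares and medians given for guidance genes below.

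Guidance cues were first described in the nervous system, where they attract or repel growing axons. Semaphorins signal through plexins, and most secreted semaphorins of class 3 also need neuropilins as co-receptors. Ephrins are membrane-bound and signal into the cell that carries the Eph receptor and also back into their own cell. Slits bind Robo receptors, and netrins bind Dcc, neogenin and the Unc5 family. Several of these systems also act in the skeleton: class 3 semaphorins and Slit3 in vessel growth and bone turnover, and ephrin B with EphB4 between osteoclasts and osteoblasts.

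RNA came from proximal tibial cartilage of non-castrated 1-week-old rats, cut by hand from stained 60 µm frozen sections into epiphyseal cartilage (n = 4 arrays, animals 1, 2, 4 and 5) and the resting, proliferative, proliferative-hypertrophic transition and hypertrophic zones (n = 5 arrays each, animals 1 to 5). In the growth plate, cells leave the resting zone for the proliferative columns, cross the transition zone and enlarge as hypertrophic cells. Rats are labelled male for the resting, proliferative and hypertrophic zones, and no sex is given for epiphyseal cartilage and the transition zone. No strain is given in the labels. Values are MAS5 signals on a linear scale, given in the order of the animal numbers.

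Zone markers followed the zones in part. All 5 markers of dividing cells were called lower in the transition than in the proliferative zone. Of these, 0 were called higher in the proliferative than in the resting zone, and 3 were called higher in the hypertrophic than in the transition zone. Col2a1, the main cartilage collagen, had zone means between 59868 and 74791. Other cartilage markers moved: from the resting to the hypertrophic zone, means went from 21903 to 6934 for Matn1 and from 22063 to 49058 for Comp. Of 6 cartilage markers tested, 3 differed across the 5 zones (F test, adjusted p below 0.05). Of the 6, 1 was called lower in the hypertrophic than in the proliferative zone. Col10a1, the collagen of hypertrophic cells, had a mean of 65526 ± 31886 (SD, n = 5) in the hypertrophic zone against 2626 ± 1809 in the proliferative zone. Epiphyseal cartilage also held Col10a1, at 8505 ± 4779 (n = 4). Markers of other cells moved with the zones. All 6 tested osteoclast and macrophage markers (of 7 measured), all 4 tested erythroid, all 4 leukocyte and all 3 osteoblast markers were called higher in the hypertrophic than in the transition zone, with 3 of 6 endothelial markers. The summed signal of the osteoclast and macrophage list ran from 8792.5 to 84236.5 in hypertrophic, from 1187 to 2139 in transition, from 693 to 1427 in proliferative, from 1546 to 25391 in resting and from 2709 to 64753 in epiphyseal arrays. The 9 skeletal muscle markers summed to between 10296 and 79519.5 in resting and to between 5391 and 14354 in proliferative arrays, and 4 of 9 were called lower in the proliferative zone. All 3 measured markers of the joint surface and epiphysis were called lower there too, with sums from 5343 to 8906 in resting and from 375 to 731 in proliferative arrays. From the transition to the hypertrophic zone, 5 of 9 muscle, 2 of 3 joint surface and 4 of 7 tested perichondrium and fibroblast markers were called higher, and 1 of the last was called lower. No marker on these lists was listed at 0. Fewer cells of a type and less RNA per cell cannot be told apart in such tissue pieces. The part of these other cells in the results below was not tested. Epiphyseal and transition samples carry differently worded labels from the rest, so in comparisons that involve them the set of records and the zone cannot be told apart. The comparison of the proliferative with the resting zone and that of the hypertrophic with the proliferative zone lie within the other set.

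Of the 36 tested guidance genes, 23 (63.9%) passed limma's F test over the 5 zones (adjusted p below 0.05), against 55.6% of all tested probe sets. Here and below, a gene stands as its brightest probe set, while all tested probe sets include dimmer ones and 4934 without a symbol. Shares over the brightest probe set of every gene were not computed, so the 2 kinds of share are not fully alike. The 23 were all 3 tested netrin and Unc5 genes, 5 of 6 Eph receptors, 5 of 7 plexins, 3 of 4 ephrins, 5 of 11 semaphorins, 1 of 3 Slit and Robo genes, and Unc50. Among these 23, 9 had their highest mean in the hypertrophic zone (Efna1, Efna5, Epha2, Plxnb1, Plxnb2, Plxnd1, Sema3f, Slit3 and Unc5b) and 8 in the resting zone (Efnb3, Epha4, Ephb3, Ephb4, Ephb6, Ntn1, Sema3c and Sema6a). The other highest means lay in epiphyseal cartilage (Plxna2, Plxna3 and Sema6d), in the transition zone (Sema3d and Unc50) and in the proliferative zone (Unc5c). The lowest mean lay in the transition zone for 7 of the 23, among them Ephb3, Efnb3 and Sema6d. It lay in the hypertrophic zone for 6, the proliferative zone for 5, epiphyseal cartilage for 3 and the resting zone for 2. Some lows were close, as for Ntn1, with means of 47, 53.1 and 53.6 in the transition, proliferative and hypertrophic zones. Some highs were close as well, all on linear means. Hypertrophic and epiphyseal means were 196.6 and 194.3 for Sema3f, 624 and 572 for Slit3, and 702 and 654 for Plxnd1. Ephb6 had 299.6 in the resting zone and 297.2 in epiphyseal cartilage. A second, untested probe set of Sema3f was highest in epiphyseal cartilage, at 78.4, and lowest in the hypertrophic zone, at 8.04. The matching shares over all tested probe sets were not computed, for highest or lowest means. The 20 genes that were not tested had zone means between 6.96 and 185 and lay above the array median in at most 3 arrays. They were Dcc, Efna4, Epha10, Epha3, Epha5, Epha7, Epha8, Ephb1, Ntn5, Plxnc1, Robo3, Sema3a, Sema3b, Sema3e, Sema4d, Sema4f, Sema5a, Slit1, Slit2 and Unc5a, and 5 of them were never above it. None of the 36 passed on the arrays of 1 zone alone, and 13 lay above the median in all 24 arrays. Ntn1 passed only on 4 epiphyseal and 5 resting arrays, the zones where it was high, with 0 arrays above the median in each other zone.

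**Figure D1:**
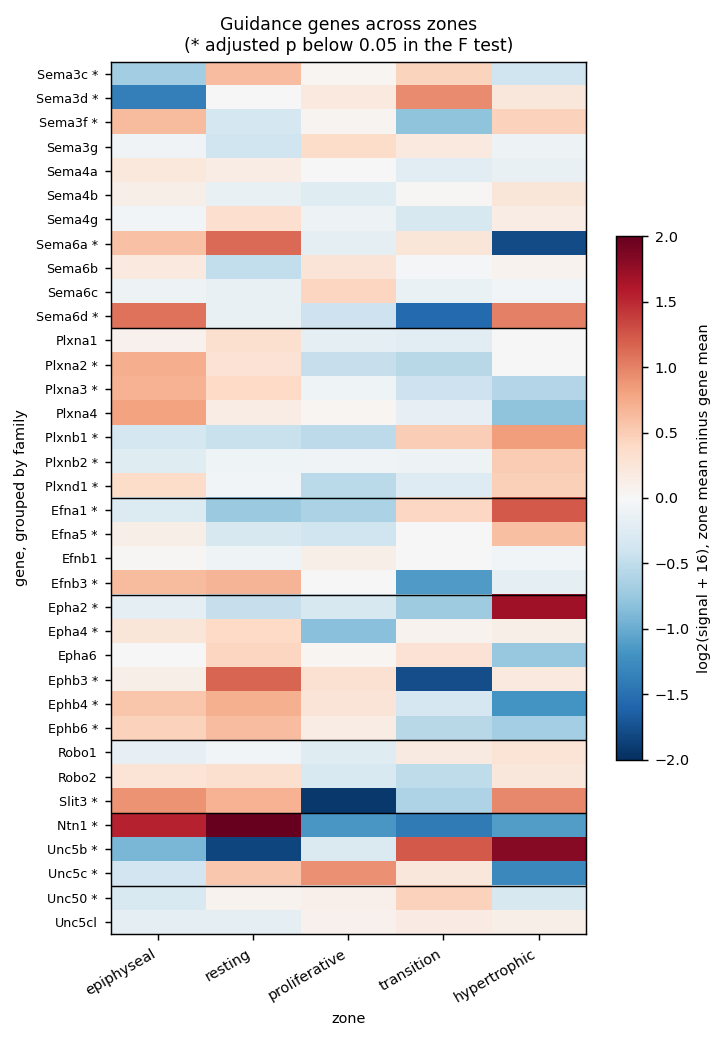
Mean log2(signal + 16) of each zone minus the mean of the 5 zones (colour, log2 units, red above and blue below, shades end at 2 and -2) for the 36 tested guidance genes, grouped by family between black lines, with an asterisk for the 23 genes that passed the F test. Ntn1 is red in epiphyseal and resting cartilage and blue elsewhere, Unc5b is bluest in the resting and reddest in the hypertrophic zone, and Ephb3 and Sema6d are bluest in the transition zone.

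Zones were then compared in 5 pairs (each zone with the next, and the hypertrophic with the proliferative zone), the others not being tested, and a gene was called at an adjusted p below 0.05 with a fold of at least 2. Changes are log2 fold changes of signal + 16 with the standard error of the fit, which understate the change of dim probe sets. Neighbouring comparisons share arrays, so their values are given side by side and not as independent results. All 30 calls below ran the same way in every animal that had both zones. Calls were selected on these same arrays, so this adds no separate support.

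Between epiphyseal cartilage and the resting zone, 3 of 36 guidance genes (8.33%) were called, all higher in the resting zone: Sema3d, Sema3c and Ephb3. Over all tested probe sets 1.51% were called, 0.651% as higher and 0.859% as lower. None was called lower, with Unc5b closest at -0.85 ± 0.23 (adjusted p = 0.0435), short of a 2-fold change. The median change was 0.051 over the guidance genes and 0.027 over all probe sets. With no replicate block only Sema3c was called, as was the case without the epiphyseal arrays of animals 1 and 2.

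From the resting to the proliferative zone, 1 gene rose (Unc5b) and 4 fell (Ntn1, Slit3, Sema6a and Epha4), so 13.9% of the guidance genes were called. The background was 6.09% of all probe sets, 1.97% higher and 4.12% lower. The median change was -0.176 over the guidance genes and -0.019 over all probe sets. When the probe sets of each gene were averaged, Slit3 and Epha4 were called, and Ntn1 and Sema6a no longer passed the filter and were not tested.

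From the proliferative to the transition zone, 4 genes rose (Unc5b, Slit3, Efna1 and Plxnb1) and 2 fell (Ephb3 and Efnb3), which is 16.7% against 8.43% of all probe sets (3.11% higher and 5.31% lower). Arrays scaled to one median gave 5 rises and 1 fall. The median change was -0.099 over the guidance genes and -0.065 over all probe sets.

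From the transition to the hypertrophic zone, 5 genes rose (Sema6d, Epha2, Ephb3, Slit3 and Sema3f) and 2 fell (Sema6a and Unc5c), which is 19.4% against 9.27% of all probe sets (6.78% higher and 2.49% lower). This split depended on scaling: it was 5 rises and 6 falls with arrays scaled to one median, under which the median change of all probe sets was -0.230 in place of 0.016, and 4 rises and 3 falls with quantile normalization. The median change over the guidance genes was 0.149.

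Between the proliferative and the hypertrophic zone, 6 genes were higher in the hypertrophic zone (Slit3, Unc5b, Epha2, Efna1, Plxnb1 and Plxnd1) and 3 lower (Unc5c, Sema6a and Ephb4). That is 25% of the guidance genes against 18.7% of all probe sets, 9.59% higher and 9.07% lower. The median change was 0.032 over the guidance genes and -0.049 over all probe sets.

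**Figure D2:**
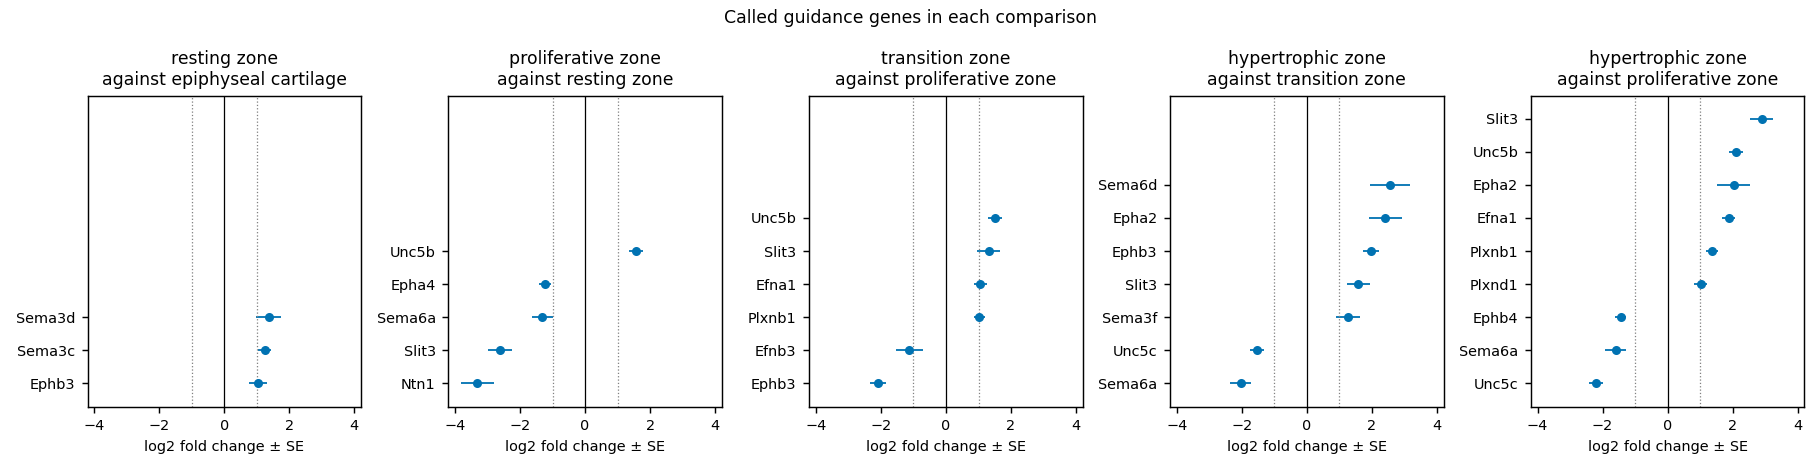
Log2 fold change of signal + 16 (x axis, first-named zone minus second, points with bars of 1 standard error) of the 30 calls in the 5 comparisons, with dotted lines at a 2-fold change. Falls and rises stand side by side in every panel but the first, where all 3 genes lie to the right of 0, and the longest bars belong to Sema6d and Epha2.

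Promoters of 4 genes with large or paired changes are shown: Sema3c and Sema3d, which were both higher in resting than in epiphyseal cartilage, and Unc5b and Slit3, which rose toward the hypertrophic zone. Each is the 250 bases before the annotated start, 5′ to 3′ on the gene's strand, from RefSeq on GRCr8, with matches to GGGCGG or its complement, the box bound by Sp factors, in capitals. RefSeq's table held a 300-base window (250 bases before and 50 after the start) for 42 of the 56 genes. The Sema3c promoter lies at chr4:18699628-18699877 (minus strand), the Sema3d promoter at chr4:23460972-23461221 (minus strand), the Unc5b promoter at chr20:29307271-29307520 (minus strand) and the Slit3 promoter at chr10:20075679-20075928 (plus strand).
Sema3c: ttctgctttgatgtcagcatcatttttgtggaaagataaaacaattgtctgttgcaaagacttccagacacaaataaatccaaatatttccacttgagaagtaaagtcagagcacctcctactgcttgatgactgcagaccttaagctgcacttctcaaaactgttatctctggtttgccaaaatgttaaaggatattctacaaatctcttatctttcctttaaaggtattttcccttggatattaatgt
Sema3d: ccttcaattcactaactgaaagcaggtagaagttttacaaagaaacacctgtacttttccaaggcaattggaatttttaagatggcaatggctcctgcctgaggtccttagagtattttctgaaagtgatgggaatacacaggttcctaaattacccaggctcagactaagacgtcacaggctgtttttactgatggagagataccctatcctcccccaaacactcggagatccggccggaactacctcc
Unc5b: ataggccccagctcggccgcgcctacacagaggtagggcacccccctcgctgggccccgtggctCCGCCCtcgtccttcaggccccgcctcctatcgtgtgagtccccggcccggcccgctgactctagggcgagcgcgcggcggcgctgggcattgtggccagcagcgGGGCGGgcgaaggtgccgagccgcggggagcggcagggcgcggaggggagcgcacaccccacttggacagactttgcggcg
Slit3: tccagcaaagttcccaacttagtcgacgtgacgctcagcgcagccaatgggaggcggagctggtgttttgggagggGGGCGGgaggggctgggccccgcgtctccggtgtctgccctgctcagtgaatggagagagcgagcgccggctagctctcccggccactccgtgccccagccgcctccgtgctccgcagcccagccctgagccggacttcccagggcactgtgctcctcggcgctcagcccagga

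Over the 300-base windows, Sema3c had a GC content of 36.3% with 1 CG dinucleotide and Sema3d 47.3% with 6, while Unc5b had 74.3% with 37 and Slit3 69.3% with 24. The median was 62% with 18 over the 42 guidance genes and 61% with 21 over 8816 genes tested on the arrays. Of the 42, only 28 were tested on the arrays, so the 42 and the 8816 are not chosen alike. The GGGCGG box was found on either strand in 26 of 42 guidance genes and in 63.3% of the 8816 genes, with 2 matches in Unc5b, 1 in Slit3 and 0 in Sema3c and Sema3d. The letters TGTGGT, the core of a Runx site, were in 6 of 42, with Unc50 and Unc5cl among the 6, and in 12.2% of the 8816. GACCACCCA, a site of the hedgehog-responsive Gli factors, was in 0 of 42 and 0.306% of the 8816, and a Mef2 site in 0 of 42 and 2.94%. All motifs were searched on both strands, and a match is only a run of letters.

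Netrin 1 is a secreted cue, and its signal was highest in the upper cartilage. Ntn1 signals were 697, 191, 313 and 388 in epiphyseal cartilage and 838, 478, 503, 470.3 and 545 in the resting zone. They were 6.8, 64.1, 120.4, 20.4 and 53.8 in the proliferative, 98.5, 13.4, 102, 16.1 and 5.1 in the transition and 20.4, 25.1, 97.3, 106 and 19.1 in the hypertrophic zone. Every resting and epiphyseal array lay above every array of the 3 other zones. From the resting to the proliferative zone Ntn1 fell by 3.31 ± 0.50 in log2 units (adjusted p = 3.87e-05), a fold of 9.88, in 5 of 5 animals. With a pseudocount of 64 it was -2.48. No further step was called, with changes of -0.25 from the proliferative to the transition and 0.29 from the transition to the hypertrophic zone.

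Unc5b and Unc5c encode netrin receptors of the same family and ran in opposite directions from the proliferative zone on. Unc5b signals were 622, 471, 844 and 676 in epiphyseal, 275.5, 212, 224, 548 and 514 in resting and 794, 809.6, 589, 2082 and 1218 in proliferative arrays. They were 2457.5, 2552, 2926, 4261 and 2392 in the transition and 4662, 3995, 4158, 3524 and 5455 in the hypertrophic zone. Each animal had a higher signal in the proliferative than in the resting zone and a higher one again in the transition zone, and animal 4 alone had less in the hypertrophic than in the transition zone. The changes were 1.56 ± 0.21 from the resting to the proliferative zone (adjusted p = 1.07e-05), 1.5 ± 0.21 on to the transition zone (adjusted p = 1.24e-05) and 0.60 ± 0.21 on to the hypertrophic zone (adjusted p = 0.0456, below 2-fold). From the proliferative to the hypertrophic zone the gain was 2.10 ± 0.21 (adjusted p = 2.85e-08), 4.29-fold. A second, much dimmer tested probe set gave 1.13 ± 0.51, -0.42 ± 0.51 and 0.54 ± 0.51 for the first, second and last of these contrasts and was called in none. Averaged over its probe sets, the rise to the transition zone was 0.543 (adjusted p = 0.166) and the gain from the proliferative to the hypertrophic zone 1.32 (adjusted p = 0.000444).

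Unc5c signals were 826, 927, 744 and 749 in epiphyseal, 1461, 1705, 1578, 1781 and 1290.4 in resting and 1947, 1949, 2837, 1849.7 and 1687 in proliferative arrays. They were 1249.9, 1053, 2101.5, 982 and 1134 in the transition and 352, 239.8, 761, 755 and 276 in the hypertrophic zone. The proliferative mean was the highest, with arrays that overlapped the resting and transition ones, and all 5 hypertrophic arrays lay below all transition arrays. The drop from the transition to the hypertrophic zone was -1.53 ± 0.21 (adjusted p = 9.17e-06), and from the proliferative to the hypertrophic zone -2.21 ± 0.21 (adjusted p = 9.63e-09). The second probe set of Unc5c gave -1.27 ± 0.16 and -2.85 ± 0.16 and was called in both. The step from the proliferative to the transition zone was -0.68 ± 0.21 (adjusted p = 0.0208), below 2-fold, while on the second probe set it was -1.58 ± 0.16 (adjusted p = 1.63e-07), past the call. Dcc and Unc5a, 2 further netrin receptors, were not tested, with zone means no higher than 88.6 and 44.1.

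Slit3, a secreted ligand of Robo receptors, was lowest in the middle of the growth plate. Slit3 signals were 640.4, 549, 491.5 and 609 in epiphyseal, 416, 553, 363, 563 and 604 in resting and 218, 16.2, 86.7, 48.6 and 61 in proliferative arrays. They were 247, 293, 169.9, 84.6 and 220.5 in the transition and 386.5, 873.5, 474, 575 and 811.5 in the hypertrophic zone. All 5 proliferative arrays lay below all resting and all hypertrophic arrays, and the transition arrays overlapped with the 2 highest proliferative ones. From the resting to the proliferative zone Slit3 fell by 2.62 ± 0.36 in log2 units (adjusted p = 1.17e-05), 6.13-fold, or by 2.02 with a pseudocount of 64. The rises were 1.31 ± 0.36 to the transition zone (adjusted p = 0.0105), 1.58 ± 0.36 on to the hypertrophic zone (adjusted p = 0.00241) and 2.89 ± 0.36 from the proliferative to the hypertrophic zone (adjusted p = 7.18e-07), the last being 2.27 with a pseudocount of 64. The rise to the transition zone was not called without replicate 2 (0.82, adjusted p = 0.119) or without replicate 5 (1.23, adjusted p = 0.0621).

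Robo1 and Robo2, the Slit receptors with a tested probe set, did not pass the F test (adjusted p = 0.797 and 0.11). A second tested probe set of Robo2 did (adjusted p = 0.000123), where epiphyseal arrays averaged 279, resting arrays 159.7, proliferative arrays 32.5, transition arrays 18.9 and hypertrophic arrays 294. On it Robo2 fell by 2.27 ± 0.59 from the resting to the proliferative zone (adjusted p = 0.0104) and rose by 2.58 ± 0.59 from the transition to the hypertrophic zone (adjusted p = 0.00246). That probe set was noticed after its values were seen and is in no count above.

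**Figure D3:**
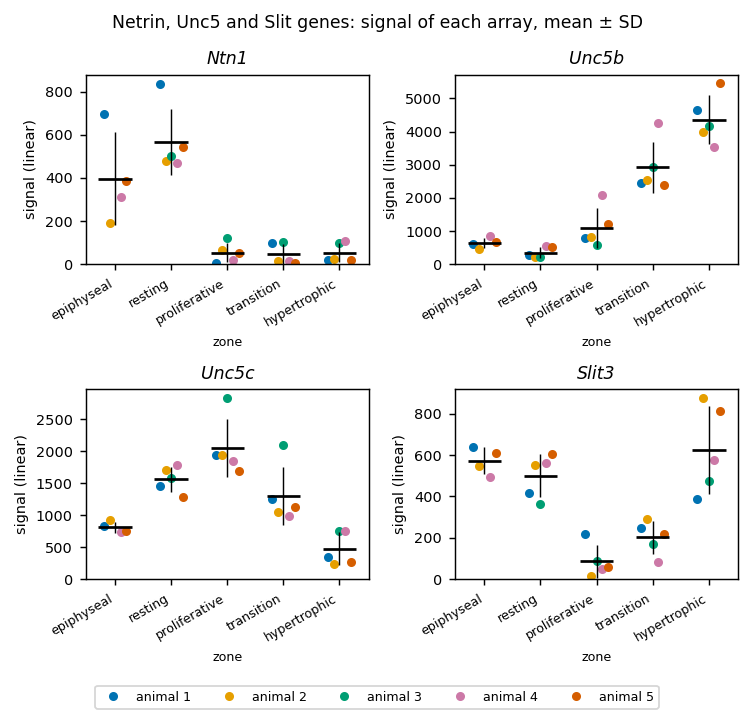
Signal of each array (y axis, linear MAS5 units from 0) by zone (x axis) for Ntn1, Unc5b, Unc5c and Slit3, with a colour for each animal, a horizontal line at the zone mean and a vertical bar of 1 SD to each side, cut at 0 (n = 4 in epiphyseal cartilage and 5 elsewhere). Ntn1 is higher in every array of the first 2 zones than in any other, Unc5b climbs to a mean of 4359, Unc5c peaks at a mean of 2054 in the proliferative zone, and Slit3 is lowest there.

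Class 3 semaphorins are secreted. Sema3c and Sema3d had the smallest p of the class 3 members in the F test, and Sema3a, Sema3b and Sema3e were not tested. Sema3d signals were 155, 801, 815 and 384 in epiphyseal, 923, 1597, 1070.3, 1369.7 and 997 in resting and 1819, 2312, 921, 1164.5 and 995.5 in proliferative arrays. They were 2814, 3739.5, 1840.5, 1624 and 1993 in the transition and 1576, 2149.5, 2124, 429 and 1554.5 in the hypertrophic zone. All epiphyseal arrays lay below all resting arrays, animals 1 and 2 had the highest transition values, and the hypertrophic array of animal 4 lay far below the others of its zone. Sema3d differed across the 5 zones (F test, adjusted p = 0.000281). The change from epiphyseal to resting cartilage was 1.37 ± 0.38 (adjusted p = 0.0499). It was not called in 12 of 18 alternative settings, among them no replicate block (adjusted p = 0.1), leaving out replicate 1 (0.969, adjusted p = 0.265), 2 (adjusted p = 0.21), 3 (adjusted p = 0.0784) or 5 (adjusted p = 0.147), leaving out the transition array of animal 5 (adjusted p = 0.0532), and leaving out the epiphyseal arrays of animals 1 and 2 (0.687, adjusted p = 0.587). The later steps were not called: 0.21 ± 0.35 to the proliferative, 0.75 ± 0.35 to the transition (adjusted p = 0.133, upward in 5 of 5 animals) and -0.73 ± 0.35 to the hypertrophic zone (adjusted p = 0.14).

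Sema3c signals were 2069, 4053, 2591 and 2629 in epiphyseal, 5581, 9318, 7415, 7027 and 5772 in resting and 4860.5, 6442, 5552, 2677 and 4347.5 in proliferative arrays. They were 6592, 8319, 6239, 3854 and 6532 in the transition and 2856.5, 4553, 6067, 1740.2 and 3279 in the hypertrophic zone. All resting arrays lay above all epiphyseal arrays, and animal 4 had the lowest value in each of the proliferative, transition and hypertrophic zones. The rise from epiphyseal to resting cartilage was 1.24 ± 0.19 (adjusted p = 0.000325), 2.37-fold, and was called in all 18 alternative settings. From the resting to the proliferative zone the change was -0.59 ± 0.18 (adjusted p = 0.0285) and from the transition to the hypertrophic zone -0.85 ± 0.18 (adjusted p = 0.00126), both below 2-fold.

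Sema6a, a membrane-bound semaphorin, was highest in the resting and lowest in the hypertrophic zone. Sema6a signals were 459, 454, 391 and 603 in epiphyseal, 622, 676, 790.4, 652 and 730.5 in resting and 258, 351, 247, 182 and 349 in proliferative arrays. They were 242, 446, 452, 322 and 423 in the transition and 26.5, 116, 184, 149 and 24 in the hypertrophic zone. No resting array overlapped with any other zone, and the hypertrophic arrays lay below every transition array. The changes were -1.31 ± 0.32 from the resting to the proliferative zone (adjusted p = 0.00631), -2.03 ± 0.32 from the transition to the hypertrophic zone (adjusted p = 5.38e-05) and -1.60 ± 0.32 from the proliferative to the hypertrophic zone (adjusted p = 0.000293). A second tested probe set moved the same way in all 3, by -0.89, -0.99 and -0.69, short of a call.

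Sema6d, of the same class, was dim in the middle zones and uneven elsewhere. Sema6d signals were 1070.5, 765.5, 50 and 193 in epiphyseal, 247, 80.1, 139.6, 55.6 and 172 in resting and 109, 95.7, 92.3, 55.9 and 181 in proliferative arrays. They were 46.4, 42.4, 41.2, 39.3 and 19.6 in the transition and 323, 76.9, 336, 1429 and 166 in the hypertrophic zone. In epiphyseal cartilage animals 1 and 2, and in the hypertrophic zone animal 4, stood above all other arrays. The same 3 arrays had the highest summed osteoclast and macrophage marker signals of the 24, at 64753, 30585 and 84236.5. They also had the highest endothelial sums, at 7010.6, 5337.6 and 3618.8. Hypertrophic animal 4 had the highest osteoblast and the highest perichondrium and fibroblast sums too, at 93714 and 106665. Which cells gave the Sema6d signal was not tested. The rise from the transition to the hypertrophic zone was 2.56 ± 0.62 (adjusted p = 0.00379). Without the hypertrophic array of animal 4 it was 1.76 (adjusted p = 0.0145), and it was 2.31 with arrays scaled to one median. The difference between epiphyseal and resting cartilage was -1.26 ± 0.66 (adjusted p = 0.404).

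Sema3f had zone means of 63.5 ± 24.2 (SD, n = 5) in the transition and 197 ± 111 in the hypertrophic zone, with 1 hypertrophic array among the transition values. It rose by 1.27 ± 0.37 (adjusted p = 0.0139), but was not called without replicate 1 (adjusted p = 0.0516) or 5 (adjusted p = 0.0778). The 6 other tested semaphorins, Sema3g, Sema4a, Sema4b, Sema4g, Sema6b and Sema6c, did not pass the F test, with adjusted p between 0.122 and 0.948.

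Plexins are the semaphorin receptors. In the 5 comparisons made, the called plexins were Plxnb1 and Plxnd1. Plxnb1, which binds class 4 semaphorins, had means of 2289.8 ± 564 (SD, n = 4) in epiphyseal, 2092 ± 182 (n = 5) in resting, 2045 ± 635 in proliferative, 4082 ± 707 in transition and 5184 ± 1071 in hypertrophic arrays. All transition and hypertrophic arrays lay above all others. It rose by 1.02 ± 0.17 from the proliferative to the transition zone (adjusted p = 0.000105) and by 1.36 ± 0.17 from the proliferative to the hypertrophic zone (adjusted p = 8.47e-07). Without replicate 2 the former was just under 2-fold, at 0.941. One other probe set of Plxnb1 gave 0.50 ± 0.27 and 1.21 ± 0.27 (the latter called) and another 0.42 ± 0.45 and -0.64 ± 0.45. Averaged over the probe sets the changes were 0.647 and 0.641, both under 2-fold.

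Plxnb2 changed less, by 0.61 ± 0.15 from the transition to the hypertrophic zone (adjusted p = 0.00476), from 2434 ± 761 to 3587 ± 507 (SD, n = 5 each). Plxnd1, a receptor of Sema3e found on endothelial cells, had means of 346 ± 106 in the proliferative and 702 ± 135 in the hypertrophic zone. It rose by 1.01 ± 0.20 (adjusted p = 0.000274), and the change was under 2-fold without replicate 2, 4 or 5 (0.882, 0.984 and 0.902) and when only hypertrophic animal 4 was left out (0.967). Of the endothelial markers 3 of 6 were called higher in this comparison, with summed signals from 1572 to 3619 in hypertrophic and from 1065 to 1642 in proliferative arrays. Plxna2 and Plxna3 had their highest means in epiphyseal cartilage, at 425 ± 183 and 670.3 ± 218 (n = 4), and were called in none of the 5 comparisons, of which only the first involves epiphyseal cartilage. A second tested probe set of each did not pass the F test (adjusted p = 0.725 for Plxna2 and 0.169 for Plxna3). That of Plxna3 had its highest mean in the resting zone, at 356 against 237 in epiphyseal cartilage. Plxna1 and Plxna4 did not pass the F test (adjusted p = 0.153 and 0.188).

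**Figure D4:**
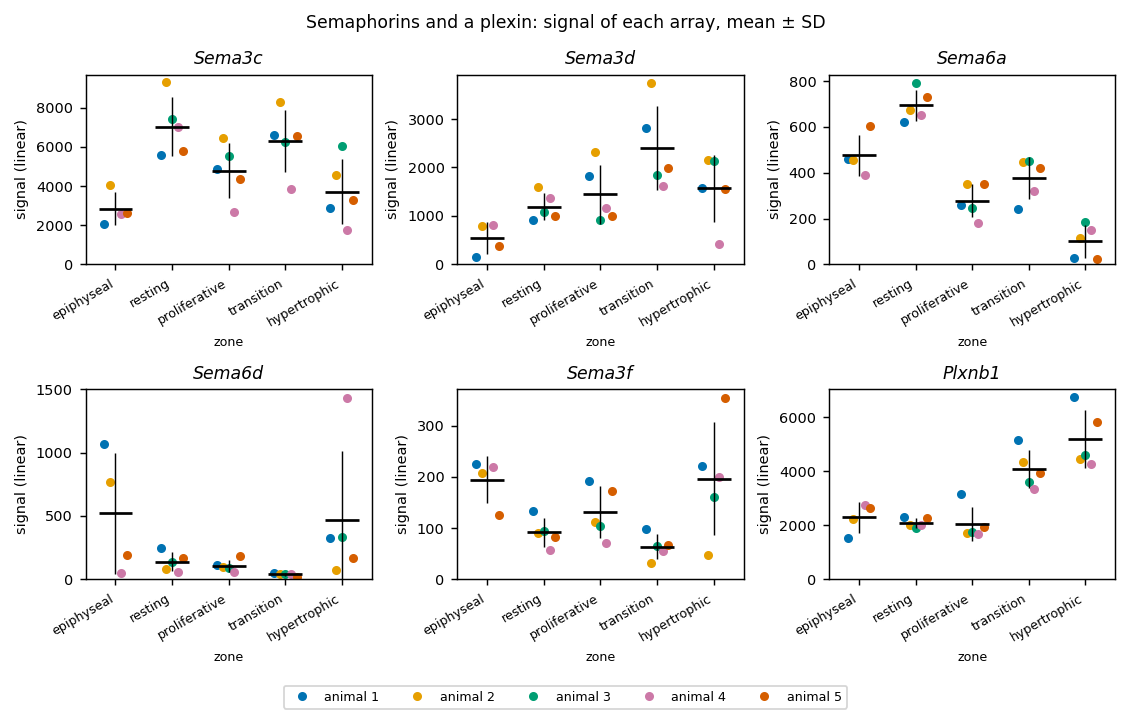
Signal of each array (y axis, linear MAS5 units from 0) by zone (x axis) for 5 semaphorins and Plxnb1, with a colour for each animal, a horizontal line at the zone mean and a vertical bar of 1 SD to each side, cut at 0 (n = 4 in epiphyseal cartilage and 5 elsewhere). Sema6a falls to a mean of 99.9 in the hypertrophic zone while Plxnb1 climbs to 5184, and the wide bars of Sema6d come from epiphyseal animals 1 and 2 and hypertrophic animal 4.

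Ephrin A ligands are anchored to the outer membrane by lipid. Efna1 signals were 546, 335, 371 and 350.5 in epiphyseal, 365, 157, 307.5, 293 and 318 in resting and 344, 206, 224, 413 and 372 in proliferative arrays. They were 617, 491, 499.9, 672 and 1060.3 in the transition and 1405, 967, 1256.5, 955 and 1185 in the hypertrophic zone. Transition arrays all lay above the proliferative ones, and the transition array of animal 5 reached into the hypertrophic range. Efna1 rose by 1.05 ± 0.20 from the proliferative to the transition zone (adjusted p = 0.000363) and by 1.87 ± 0.20 from the proliferative to the hypertrophic zone (adjusted p = 5.64e-08), 3.65-fold. The first change was 0.947 without replicate 5, 0.898 with only transition animal 5 dropped, and, averaged with a dim second probe set, 0.545 (adjusted p = 0.22). Efna5 had its highest mean in the hypertrophic zone too, at 911 ± 188 (SD, n = 5) against 460 ± 161 in the proliferative zone, a change of 1.00 ± 0.23 that fell just short of 2-fold (adjusted p = 0.00136).

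Ephrin B ligands span the membrane. Efnb3 signals were 295, 285, 142.5 and 499 in epiphyseal, 154, 208, 237, 501 and 521 in resting and 173, 131.5, 87.4, 300 and 264 in proliferative arrays. They were 66.4, 44.6, 59.7, 257 and 33.1 in the transition and 288.5, 146, 85.9, 162 and 141 in the hypertrophic zone. In the transition zone 4 arrays were at 66.4 or lower and animal 4 stood apart, inside the proliferative range. The change of -1.13 ± 0.41 from the proliferative to the transition zone (adjusted p = 0.049) was not called in 13 of 17 alternative settings, among them no replicate block (adjusted p = 0.0778), leaving out replicate 1 (adjusted p = 0.097), 2 (adjusted p = 0.143), 3 (adjusted p = 0.0618) or 5 (adjusted p = 0.234), or leaving out the transition array of animal 5 (adjusted p = 0.197). Efnb1 was nearly level, with zone means from 376 to 435 (F test, adjusted p = 0.852).

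Among the Eph receptors, Ephb3 had the sharpest dip in the transition zone. Ephb3 signals were 628, 416, 801 and 617 in epiphyseal, 1438, 886, 1158, 1438 and 1447 in resting and 755, 438.5, 1015.5, 727 and 625 in proliferative arrays. They were 230.1, 150.4, 187, 93.3 and 121 in the transition and 635, 451, 363, 861.5 and 1144 in the hypertrophic zone. All 5 transition arrays lay below every array of the 4 other zones. Ephb3 fell by 2.09 ± 0.25 in log2 units from the proliferative to the transition zone (adjusted p = 1.47e-06) and rose by 1.98 ± 0.25 on to the hypertrophic zone (adjusted p = 4.01e-06). The rise from epiphyseal to resting cartilage was 1.04 ± 0.27 (adjusted p = 0.0361), and it was not called when the block was dropped (adjusted p = 0.0662), without replicate 1 (adjusted p = 0.172), 2 (adjusted p = 0.21) or 5 (adjusted p = 0.0922), nor without the epiphyseal arrays of animals 1 and 2 (adjusted p = 0.295).

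Ephb4, the receptor of ephrin B2 on veins and osteoblasts, had a lower mean in each zone from the resting zone on. Ephb4 signals were 1152, 968, 876 and 1118 in epiphyseal, 1372, 1341, 1176, 826 and 1089.8 in resting and 1019, 870.1, 756, 689 and 842 in proliferative arrays. They were 670, 648, 513, 389.8 and 564 in the transition and 208, 316.5, 298, 381 and 290.3 in the hypertrophic zone. The hypertrophic arrays lay below all arrays of the other zones. In the same step from the transition zone 3 of 3 tested osteoblast and 3 of 6 endothelial markers were called higher. All 6 tested osteoclast and macrophage, all 4 erythroid and all 4 leukocyte markers were called higher there as well. Whether the mix of cells bears on the Ephb4 signal was not tested. Its changes were -0.46 ± 0.18, -0.58 ± 0.18 and -0.86 ± 0.18 for the 3 steps from the resting zone on, none reaching 2-fold, and -1.45 ± 0.18 from the proliferative to the hypertrophic zone (adjusted p = 4.68e-07). Ephb6, a receptor that lacks kinase activity, had means from 299.6 ± 38.8 (SD, n = 5) in the resting to 115 ± 30.8 in the hypertrophic zone. It passed the F test (adjusted p = 0.00877) and was called in none of the 5 comparisons, which do not set the resting against the hypertrophic zone.

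Epha2, a receptor of ephrin A ligands, had its highest mean in the hypertrophic zone. Epha2 signals were 283, 193, 97 and 46.1 in epiphyseal, 157, 123, 198, 89.7 and 31.2 in resting and 19.4, 194, 221, 147.5 and 125 in proliferative arrays. They were 20.5, 120.1, 124, 78.1 and 149.5 in the transition and 553, 516, 274, 679 and 738 in the hypertrophic zone. The lowest hypertrophic value, of animal 3, lay just under the highest epiphyseal one, and all others lay above every array outside the hypertrophic zone. The rises were 2.41 ± 0.51 from the transition (adjusted p = 0.00127) and 2.03 ± 0.51 from the proliferative zone (adjusted p = 0.00281).

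Epha4, which binds ephrins of both classes, dipped in the proliferative zone instead. Its means were 2424 ± 554 (SD, n = 4) in epiphyseal, 2666 ± 413 (n = 5) in resting, 1224 ± 557 in proliferative, 2124 ± 264 in transition and 2193 ± 258 in hypertrophic arrays. The proliferative array of animal 2, at 2054, was the only one to reach the range of the other zones. Epha4 fell by 1.23 ± 0.19 in log2 units from the resting to the proliferative zone (adjusted p = 7.04e-05). Of its 3 other tested probe sets, all moved the same way, by -0.81, -1.40 and -1.97, and the last 2 were called. The return was 0.91 ± 0.19 in the transition zone (adjusted p = 0.00128), below 2-fold, and on the other probe sets 0.72 ± 0.34, 0.85 ± 0.21 and 1.65 ± 0.28, of which the last was past the call (adjusted p = 0.000116). From the proliferative to the hypertrophic zone the change was 0.96 ± 0.19 (adjusted p = 0.000351), also below 2-fold. On the other probe sets it was 1.15 ± 0.34, 1.28 ± 0.21 and 1.56 ± 0.28, all past the call (adjusted p = 0.00909, 2.86e-05 and 8.61e-05). Epha6 did not pass the F test (adjusted p = 0.156).

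**Figure D5:**
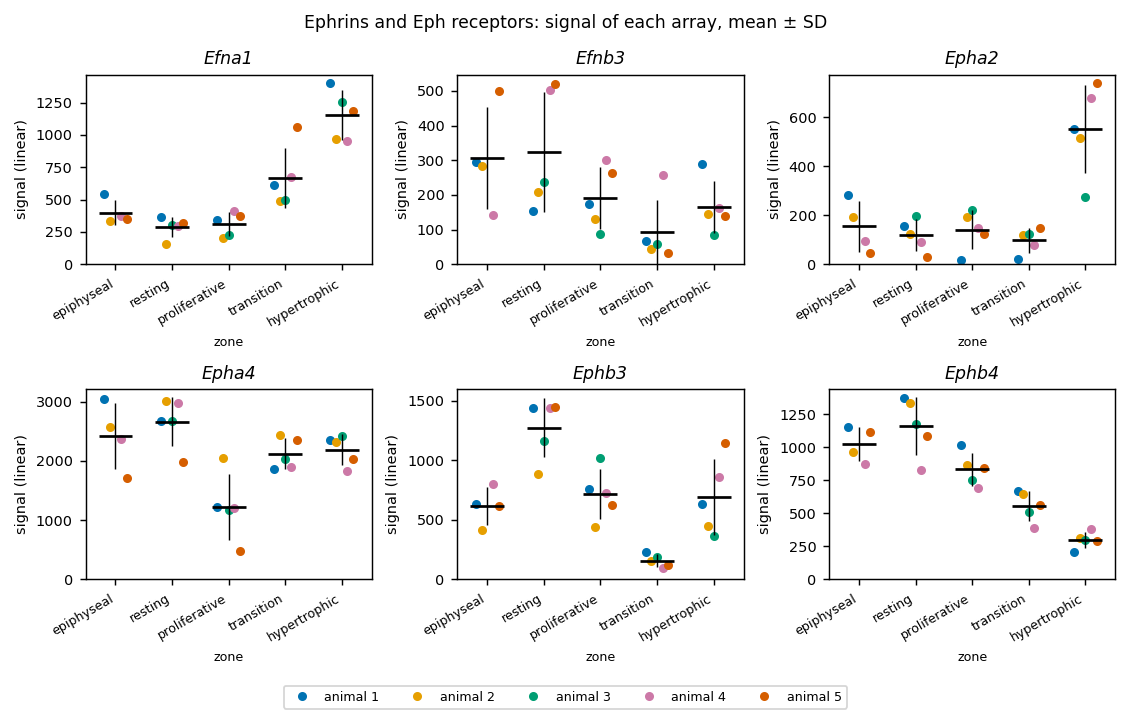
Signal of each array (y axis, linear MAS5 units from 0) by zone (x axis) for 2 ephrins and 4 Eph receptors, with a colour for each animal, a horizontal line at the zone mean and a vertical bar of 1 SD to each side, cut at 0 (n = 4 in epiphyseal cartilage and 5 elsewhere). Efna1 and Epha2 are highest in the hypertrophic zone, Ephb4 is lowest there with a mean of 299, Ephb3 drops to a mean of 156 in the transition zone, and Epha4 is lowest in the proliferative zone.

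Of 42 co-receptors and intracellular partners of these systems that were listed as background, 40 were measured and 30 tested, and 20 of the 30 passed the F test, against 55.6% of all tested probe sets. The numbers called higher and lower were 0 and 1 from epiphyseal to resting cartilage, 0 and 1 from the resting to the proliferative zone, 2 and 3 on to the transition zone, 5 and 0 on to the hypertrophic zone, and 6 and 3 from the proliferative to the hypertrophic zone. Over all probe sets the shares called in these comparisons were 1.51%, 6.09%, 8.43%, 9.27% and 18.7%. Nrp1, a co-receptor of class 3 semaphorins and of vascular endothelial growth factor, was the single call in both of the first comparisons, at -1.03 ± 0.22 (adjusted p = 0.00883) and -2.07 ± 0.21 (adjusted p = 9.58e-08). It then rose by 2.67 ± 0.21 and by 2.13 ± 0.21, to a mean of 10100 ± 2391 (SD, n = 5) in the hypertrophic zone against 350.4 ± 94.6 in the proliferative zone. The gain between these was 4.79 ± 0.21 (adjusted p = 1.41e-14). Nrp2, the second neuropilin, fell by 1.14 ± 0.25 into the transition zone and rose by 2.84 ± 0.25 out of it (adjusted p = 0.00169 and 2.37e-08).

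Flrt2 and Flrt3, membrane proteins that bind Unc5 receptors, fell from the proliferative to the transition zone by 1.45 ± 0.25 and 1.40 ± 0.30 in log2 units (adjusted p = 0.00014 and 0.00145). Vav3, an exchange factor used by Eph receptors, rose in the same step by 1.01 ± 0.19 (adjusted p = 0.000325). From the transition to the hypertrophic zone Mical3, a relative of the plexin effector Mical1, rose by 2.21 ± 0.24 and Ngef, the Eph-linked exchange factor ephexin, by 1.25 ± 0.22. From the proliferative to the hypertrophic zone Ngef gained 2.17 ± 0.22 (adjusted p = 3.95e-08).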

How the data were processed

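Total RNA (50 to 100 ng) was amplified in a pair of cycles, labelled with biotin and hybridised to Affymetrix arrays, per the labels' protocols. What the authors deposited is intensity: a linear MAS5 signal for each probe set, the program being named in the submitters' processing notes. The MAS5 version was "not given in the sources used here". Trimmed by 2% at either end, array means were 500.1 to 500.2, and medians were 135.3 to 244.6.

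From these deposited intensity values log2(signal + 16) was computed for 31099 probe sets, and 57 controls were left out. Tests covered the 19213 probe sets (61.8%) with a signal over the array median on 4 or more arrays. Names came from the platform annotation. For zone differences limma 3.58.1 under R 4.3.3 was used (lmFit, eBayes with trend, 15 residual degrees of freedom) on all 24 arrays, with the animal as fixed block and Benjamini-Hochberg adjustment over all tested probe sets. Sample descriptions in the labels number the animals. Deviations from zone means correlated at a median r of 0.176 between same-numbered arrays (46 pairs, -0.142 to 0.36) and -0.046 between others (184 pairs).

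The guidance genes, the marker and partner lists, the tests and the rule for named genes were chosen with earlier results of these data known. That rule names every called gene, gives all arrays for Sema3d and the 3 largest rises and falls in each comparison, and names up to 4 called partners a comparison. On simulated data over 19213 probe sets, 77 to 86 of 100 3-fold changes and 93 to 98 of 100 6-fold changes were recovered, with 2 to 6 false calls a comparison. Only those probe sets were changed, in 1 zone at a time, with normally distributed noise. In the real data 55.6% of tested probe sets passed the F test, so the simulated counts need not hold there. The number of arrays limits the precision. Alternatives were pseudocounts of 1 and 64, quantile normalization, scaling to one median, no replicate block, the filter dropped or raised to the 75th percentile, only the zones compared, no trend, averaging the probe sets of each gene, leaving out each animal and, chosen after seeing the data, leaving out 3 sets of arrays. Promoters are RefSeq's on GRCr8. Plots used matplotlib 3.10.9 (Python 3.11.15).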

Additional observations from a re-analysis of the deposited data

Results flagged for a closer look

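In 65 groups of 4 or 5 arrays (13 genes in 5 zones, on the log2 scale), 6 held an array whose gap to its neighbour was an unusually large share of the group's range, by Dixon's criterion, which flags about 1 in 20 groups by chance. Sema3d in the hypertrophic array of animal 4 was 428.8, against 1554 to 2150 in the other animals. Ntn1 in the resting array of animal 1 was 837.6, against 470.3 to 544.8. Unc5c in the proliferative array of animal 3 was 2837.4, against 1687 to 1949. Efna1 in the resting array of animal 2 was 156.8, against 293.3 to 364.8. Epha2 in the proliferative array of animal 1 was 19.4, against 125.4 to 221.3. Sema6d in the transition array of animal 5 was 19.6, against 39.3 to 46.4.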

How the results depend on the processing

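Of the 30 calls, 20 held in every alternative in which the gene could be tested and 10 were lost in at least 1; over 527 refits, 472 kept the call, 55 did not and 0 turned the direction. The counts moved by more than 1.5 times as follows. Genes that differed across zones numbered 15 with the filter at the 75th percentile, against 23, since fewer were tested. Rises from epiphyseal to resting cartilage numbered 1 with no replicate block, with no trend and with epiphyseal animals 1 and 2 dropped, and 1 to 3 with 1 animal left out, against 3. Falls from the resting to the proliferative zone numbered 2 with averaged probe sets, against 4, since Ntn1 and Sema6a were then not tested. Rises into the transition zone numbered 2 with a pseudocount of 64 and with the mean of probe sets, and 2 to 4 with 1 animal left out, against 4. Falls into it numbered 1 with a pseudocount of 64, scaling to one median, quantile normalization, either other filter, no replicate block, no trend, only the zones compared, and with transition animal 5, or epiphyseal animals 1 and 2, dropped, and 1 to 3 with 1 animal left out, against 2. Rises into the hypertrophic zone numbered 8 with no filter, 2 with the stricter filter and 3 with only the zones compared, and 3 to 6 with 1 animal left out, against 5; falls numbered 6 with scaling to one median and 1 with the mean of probe sets, where Sema6a was not tested, and 2 to 3 with 1 animal left out, against 2. Dropping the block lost the calls of Sema3d, Ephb3 (epiphyseal to resting) and Efnb3 and no other. Apart from filters, sample numbers and averaging, the cause of these shifts was not tested. No detection calls were used, so low signals such as those of Ntn1 below the resting zone have no measured background.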

Other observations

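A second tested probe set of Plxna4 passed the F test (adjusted p = 0.00652), unlike the probe set used for the gene (adjusted p = 0.188). Its means were 193 in epiphyseal cartilage, 135 in the resting zone and between 40.7 and 60.8 in the other zones, and it was called in none of the 5 comparisons made.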
